A study of Homo sapiens with 3 samples.

Results

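The genes described here are 40 named genes of protein folding and of the unfolded protein response in the endoplasmic reticulum, taken by symbol from the 22773 genes that had a value in all 3 libraries of the study. They hold 10 chaperones, 12 disulfide and prolyl isomerases with their oxidases, 5 stress sensors with their transcription factor, 9 genes of endoplasmic reticulum degradation and 4 genes of the translocon. All 40 had a value in every library and all 40 passed the filter on low values, a mean of at least 1 CPM, a count scaled to the library total, which left 14185 genes. The libraries were made from DU145, an androgen-independent human prostate cancer cell line, 48 h after transfection with 75 nM of TSPAN18 siRNA 1, TSPAN18 siRNA 2 or a control siRNA. TSPAN18 encodes a tetraspanin of the membrane, which the study's title links to STIM1, which senses calcium in the endoplasmic reticulum. There was 1 library for each of the 3 siRNAs, nothing says that any of them came from more than 1 culture, and all were DU145 cells with the same transfection reagent.

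Proteins that enter the endoplasmic reticulum are folded by chaperones around HSPA5 (BiP) and cross-linked by disulfide isomerases. When unfolded proteins build up, the sensors ERN1 (IRE1 alpha), EIF2AK3 (PERK) and ATF6 become active. ERN1 splices the message of XBP1, EIF2AK3 slows translation and favours ATF4, and cleaved ATF6 enters the nucleus, so that genes of folding and of degradation are transcribed. Calcium held in the lumen of this compartment is needed by several of its chaperones.

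The depth was 29913825 read pairs with siRNA 1, 29766559 with siRNA 2 and 30058731 in the control library, so that 1 pair is worth 0.0334, 0.0336 and 0.0333 CPM. TSPAN18 was at 1.37 CPM with siRNA 1, 1.51 CPM with siRNA 2 and 16.9 CPM in the control library, which is 8.09% of control (95% exact interval 5.74 to 11.1) and 8.93% (6.43 to 12.1). Such intervals cover counting error only, and copies made by PCR are not independent molecules. Mitochondrially encoded genes took 7.16%, 7.84% and 7.27% of the counts. Of 5 tested epithelial markers, KRT8, KRT18 and KRT19 were at 139.6 CPM or more in every library. EPCAM was lower, at 8.59 CPM with siRNA 1, 11.1 CPM with siRNA 2 and 13.7 CPM in the control library, as was CDH1, at 12.2 CPM with siRNA 1, 5.54 CPM with siRNA 2 and 5.72 CPM in the control library. The 5 summed to 770.4 CPM with siRNA 1, 754 CPM with siRNA 2 and 900.2 CPM in the control library. Of 7 haematopoietic markers only CD14 had a value in all 3 libraries, at 0.368, 0.638 and 1.36 CPM. The 2 tested fibroblast markers, COL1A1 and FBLN1, summed to 28.7 CPM with siRNA 1, 31.9 CPM with siRNA 2 and 44.9 CPM in the control library. The fibroblast markers COL3A1 and PDGFRB were below 1 CPM in every library. The 1 tested endothelial marker, EGFL7, was at 16.4, 39.8 and 33.9 CPM. The endothelial markers PECAM1, CDH5, VWF, KDR and CLDN5 were below 1 CPM in every library. In bulk RNA fewer cells and less RNA per cell cannot be told apart.

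Reference promoters show which of these genes carry the known stress elements, and they were looked up in RefSeq (GRCh38.p14), whose table holds 36 of the 40 genes (PDIA3, FKBP14, DERL1 and DERL3 were not matched). The window ran from 250 bases before to 50 bases after the annotated start, and both strands were read. The element ERSE, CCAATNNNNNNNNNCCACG, was in 22 of 27305 promoters (0.0806%), and 5 of those belong to the set. ERSE-II, ATTGGNCCACG, was in 15 promoters (0.0549%), and 3 of those belong to the set. The matches follow as lines, with the fixed letters in capitals, read 5′ to 3′ on the strand given.
HSPA5, chr9:125241391-125241409, minus strand: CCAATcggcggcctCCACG
HSP90B1 distal, chr12:103930216-103930234, plus strand: CCAATcggaaggagCCACG
HSP90B1 proximal, chr12:103930321-103930339, minus strand: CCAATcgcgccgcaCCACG
CRELD2, chr22:49918554-49918572, minus strand: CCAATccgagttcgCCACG
XBP1, chr22:28800603-28800621, minus strand: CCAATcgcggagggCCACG
ERO1B, chr1:236282183-236282201, plus strand: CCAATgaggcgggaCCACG
HERPUD1, chr16:56932025-56932035, plus strand: ATTGGgCCACG
HYOU1 distal, chr11:119057380-119057390, plus strand: ATTGGaCCACG
HYOU1 proximal, chr11:119057274-119057284, plus strand: ATTGGaCCACG
SDF2L1, chr22:21642114-21642124, minus strand: ATTGGtCCACG
All 7 ERSE and ERSE-II genes other than ERO1B encode luminal chaperones or known products of the stress response, and ERO1B is an oxidase. The shorter UPRE core, TGACGTG, was in 2.00% of all promoters and in DNAJC10, HYOU1 and TXNDC11, and its match in HYOU1 overlaps an ERSE-II match. The C/EBP-ATF element CARE, TGATGNAA, was in 3.67% of all promoters and in HERPUD1. A match is a stretch of letters and not a measured binding site.

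The upstream stretches of 3 of these genes are printed whole because their levels went different ways in the results that follow. Each line ends at the base before the annotated start, and capitals mark the fixed letters of ERSE or ERSE-II, in reverse complement where the match is on the other strand.
HSPA5, chr9:125241344-125241593, minus strand: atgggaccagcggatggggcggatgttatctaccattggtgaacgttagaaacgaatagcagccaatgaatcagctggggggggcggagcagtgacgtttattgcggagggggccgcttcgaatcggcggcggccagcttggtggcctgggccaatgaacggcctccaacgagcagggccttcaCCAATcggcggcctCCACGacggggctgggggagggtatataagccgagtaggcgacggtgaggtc
HERPUD1, chr16:56931892-56932141, plus strand: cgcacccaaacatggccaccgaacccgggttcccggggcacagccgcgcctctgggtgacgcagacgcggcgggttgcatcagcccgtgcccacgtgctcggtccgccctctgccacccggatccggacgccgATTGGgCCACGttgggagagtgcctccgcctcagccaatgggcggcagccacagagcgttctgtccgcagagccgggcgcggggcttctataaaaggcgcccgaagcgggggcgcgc
HYOU1, chr11:119057206-119057455, minus strand: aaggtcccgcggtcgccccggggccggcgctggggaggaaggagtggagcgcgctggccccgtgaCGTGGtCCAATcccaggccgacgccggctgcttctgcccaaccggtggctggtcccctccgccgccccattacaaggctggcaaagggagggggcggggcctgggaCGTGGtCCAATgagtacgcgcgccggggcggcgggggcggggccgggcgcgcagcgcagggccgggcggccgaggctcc
HSPA5 has a single exact ERSE match, close to the start, HERPUD1 a single exact ERSE-II match, and HYOU1 a pair of them on the opposite strand. Near matches to these elements were not searched for, so other copies may lie in the same stretches.

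**Figure D1:**
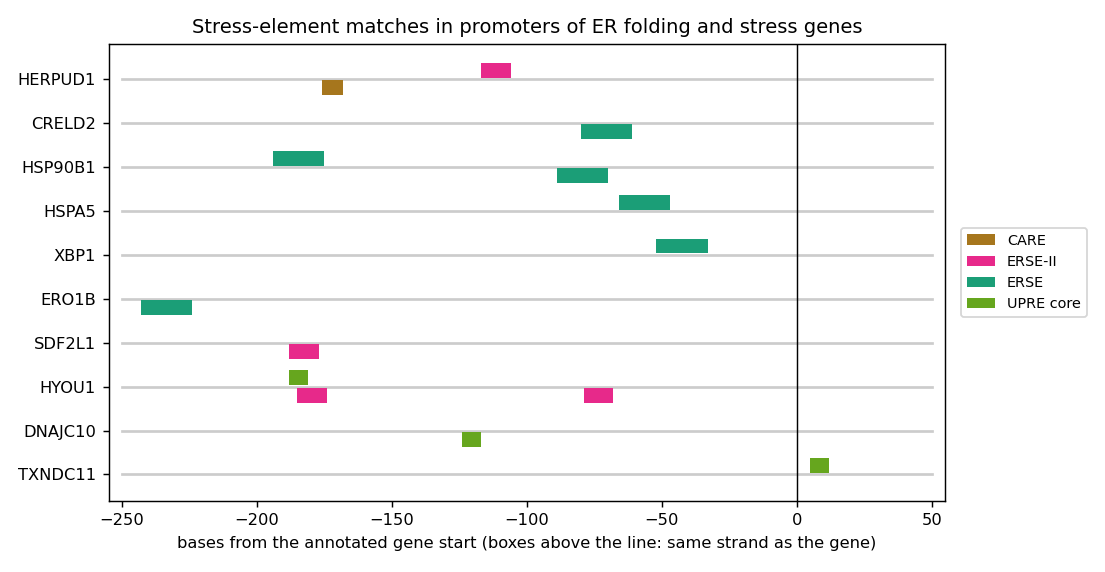
Stress-element matches in the promoters of 10 of the genes. The horizontal axis is the distance in bases from the annotated gene start, a box is a match, boxes above a line are on the strand of the gene and boxes below it on the other strand, and colour gives the element. Of the 36 promoters, 8 hold ERSE or ERSE-II.

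As a set, these genes lay near the control level with both siRNAs. The median log2 ratio to control, on the log2(CPM + 1) scale, was 0.01 with siRNA 1, where the median of all tested genes was −0.10, and 0.17 with siRNA 2, where that of all tested genes was 0.01. The gap between these 2 medians depends on the scaling: with median-of-ratios scaling they were 0.12 and 0.14, and with TMM scaling 0.11 and 0.15. By a size rule of 1.5-fold, 1 gene was higher with siRNA 1 (ERO1A), as were 4.43% of all tested genes, and 3 were lower (TXNDC5, ERN1 and DERL3), as were 15.1%. With siRNA 2, 3 genes were higher (ERO1A, HERPUD1 and DNAJB9), against 6.34% of all tested genes, and 2 were lower (TXNDC5 and ERN1), against 6.61%. At 2-fold, 0 genes were higher with siRNA 1 (0.677% of all tested genes) and TXNDC5 alone was lower (4.21%), and likewise 0 were higher with siRNA 2 (1.1%) and TXNDC5 alone was lower (1.16%). With 1 library on each side these are sizes, not tests. The siRNA 1 and siRNA 2 ratios also share the same control library, so a like direction in both is not independent. With median-of-ratios scaling the siRNA 1 shares were 7.35% higher and 11.5% lower among all tested genes, and HERPUD1 passed 1.5-fold as higher with siRNA 1 while ERN1 no longer passed as lower.

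**Figure D2:**
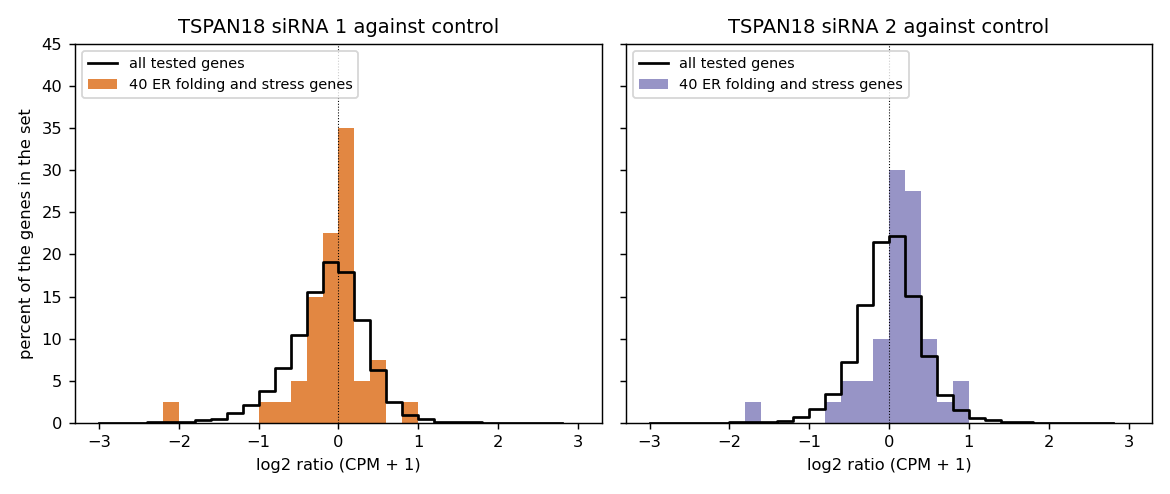
Distribution of the log2(CPM + 1) ratio to the control library, with siRNA 1 on the left and siRNA 2 on the right. Filled bars are the 40 genes and the black outline is all 14185 tested genes, both as percent of the genes in the set per bin of 0.2. The median of the filled bars is 0.01 with siRNA 1 and 0.17 with siRNA 2, a gap that median-of-ratios scaling narrows to 0.12 and 0.14.

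The one test that the design allows sets both TSPAN18 siRNA libraries against the control library in limma, with 1 residual degree of freedom. It called 0 of 14185 genes at an adjusted p of 0.05 (0%), and the smallest adjusted p among the 40 genes was 0.992. At an unadjusted p under 0.05 there were 691 genes (4.87%), of which 2 were in the set, TXNDC5 and ERO1A, a share near that of all genes. On read pairs recovered from the CPM values, edgeR's quasi-likelihood test called 0 genes, DESeq2 called 13 (0.0916%) with none in the set, and edgeR's likelihood ratio test called 23 (0.162%), among them TXNDC5 (adjusted p = 0.0049). limma with median-of-ratios scaling called 3 (0.0211%), TXNDC5 among them (adjusted p = 0.0375).

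**Figure D3:**
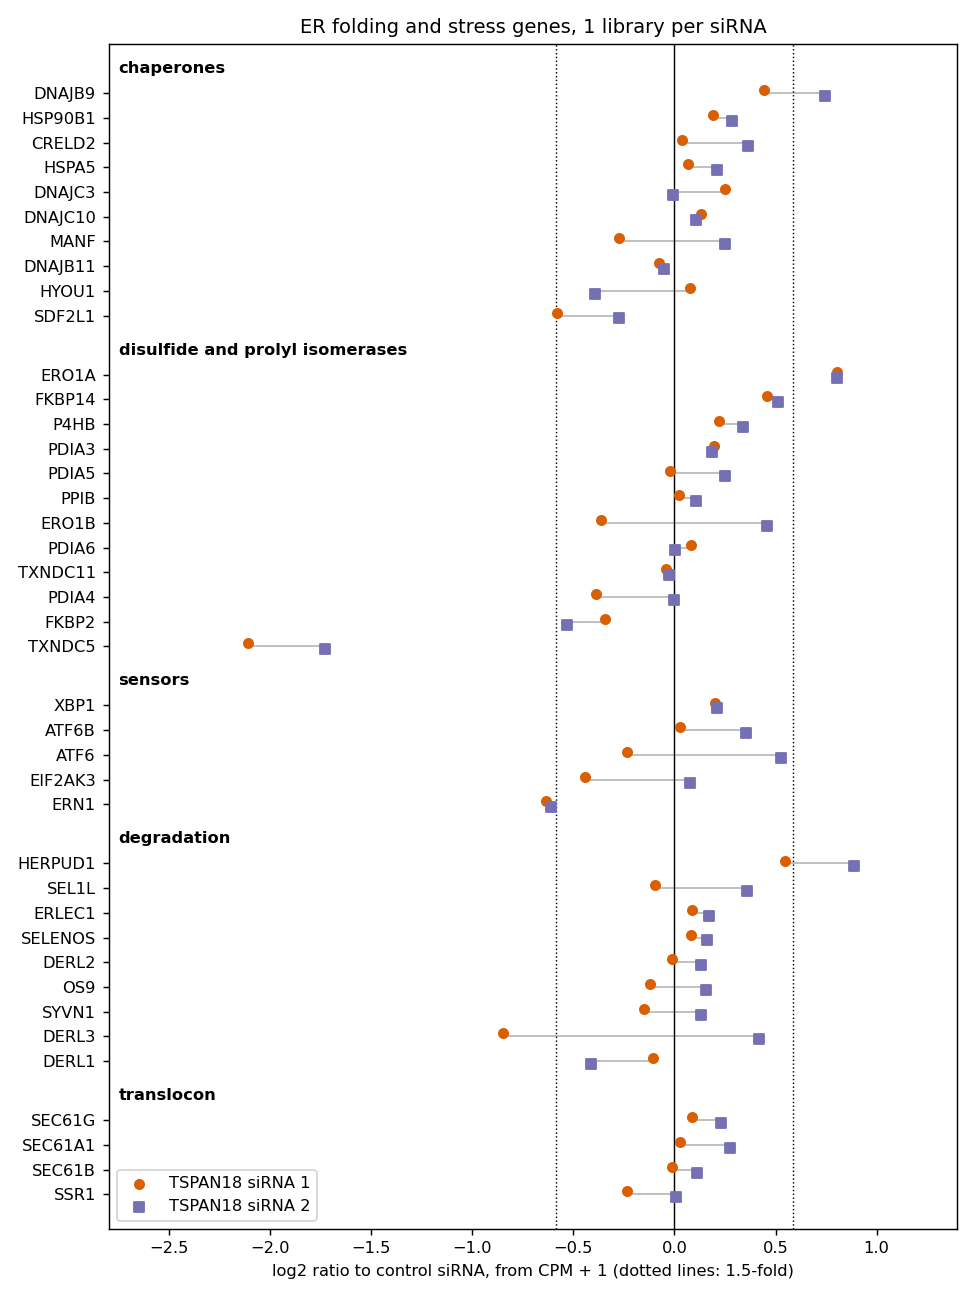
Log2(CPM + 1) ratio to the control library for each of the 40 genes, grouped by role. Circles are siRNA 1, squares are siRNA 2, each from 1 library, grey lines join them and dotted lines mark 1.5-fold. Most points lie between the dotted lines. TXNDC5 lies far to the left, and ERO1A lies to the right with both siRNAs.

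Among the luminal chaperones, HSPA5 and HSP90B1 were modestly above control and DNAJB9 was the one past 1.5-fold, with siRNA 2. HSPA5, the Hsp70 that binds unfolded chains and holds the sensors inactive, was at 1417 CPM with siRNA 1, 1568 CPM with siRNA 2 and 1354 CPM in the control library. HSP90B1 (GRP94), the Hsp90 of the lumen, was at 979 CPM with siRNA 1, 1048 CPM with siRNA 2 and 859 CPM in the control library. Both had their lowest level in the control library. HSPA5 was at 105% (103 to 106) of control with siRNA 1 and 116% (114 to 117) with siRNA 2. HSP90B1 was at 114% (112 to 116) with siRNA 1 and 122% (120.0 to 124) with siRNA 2. The order of the siRNA libraries depends on the scaling: with median-of-ratios scaling the log2 ratios of HSP90B1 were 0.31 with siRNA 1 and 0.26 with siRNA 2, and those of HSPA5 were 0.18 and 0.19. HYOU1 (GRP170), a large relative of Hsp70 that releases nucleotide from HSPA5, went apart. It was at 569 CPM with siRNA 1, 411 CPM with siRNA 2 and 539.9 CPM in the control library, so that only the siRNA 2 library stood below control, at 76.2% (74.4 to 78.0).

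The J-domain proteins pass clients to HSPA5. DNAJB9 (ERdj4), which also keeps ERN1 bound to HSPA5, was at 43.0 CPM with siRNA 1, 53.2 CPM with siRNA 2 and 31.4 CPM in the control library, or 137% (126 to 149) and 169.7% (156 to 184) of control. Both siRNA libraries were above the control library. DNAJC10 (ERdj5), a J-domain reductase, was at 160.3, 158 and 147 CPM in the siRNA 1, siRNA 2 and control libraries, DNAJC3 (p58IPK), a co-chaperone, was at 47.9, 39.8 and 40.1 CPM, and DNAJB11 (ERdj3) was at 82.5, 83.8 and 87.1 CPM. Exons of another gene cover 23.2% of DNAJB11, so its value is uncertain.

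SDF2L1, a partner of DNAJB11 and HSPA5, was below control in both siRNA libraries. It was at 23.7 CPM with siRNA 1, 29.5 CPM with siRNA 2 and 35.9 CPM in the control library, a log2 ratio of −0.58 with siRNA 1 that lies just inside the 1.5-fold line. With the GC trend removed its log2 ratios were −0.13 with siRNA 1 and −0.06 with siRNA 2. MANF, a secreted stress protein, was at 49.6 CPM with siRNA 1, 71.8 CPM with siRNA 2 and 60.1 CPM in the control library, with the siRNA libraries on either side of control. CRELD2, another secreted stress protein, was at 42.8, 54.1 and 41.8 CPM in the same order of libraries.

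Of the oxidases, ERO1A was higher with both siRNAs while ERO1B was not. ERO1A passes electrons from protein disulfide isomerase to oxygen. It was at 111 CPM with siRNA 1, 111 CPM with siRNA 2 and 63.2 CPM in the control library, or 176% (166 to 186) and 175% (166 to 186) of control. Its log2 ratios were 0.80 and 0.80, or 0.92 and 0.78 with median-of-ratios scaling. ERO1B, its paralogue, was at 11.9 CPM with siRNA 1, 21.7 CPM with siRNA 2 and 15.6 CPM in the control library, with the siRNA libraries on opposite sides of control.

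TXNDC5 (ERp46), a thioredoxin-domain isomerase, had the lowest ratio of the set. It was at 1.04 CPM with siRNA 1, 1.65 CPM with siRNA 2 and 7.78 CPM in the control library, from 31, 49 and 234 read pairs. This is 13.3% (8.84 to 19.4) and 21.1% (15.2 to 28.9) of control, with log2(CPM + 1) ratios of −2.11 and −1.73 that understate a change at such low values. Exons of other genes, mainly the readthrough gene BLOC1S5-TXNDC5 on the same strand, cover 60.6% of it, so the split of reads between the pair is uncertain.

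The other protein disulfide isomerases were within 1.5-fold of control in both siRNA libraries. P4HB (PDI), the most abundant, was at 849, 923 and 729 CPM in the siRNA 1, siRNA 2 and control libraries, and PDIA3 (ERp57), which works with the lectin chaperones, was at 608, 605 and 531 CPM. PDIA4 (ERp72) was at 545 CPM with siRNA 1, 711 CPM with siRNA 2 and 713 CPM in the control library, so that the siRNA 1 library alone was lower, at 76.4% (74.9 to 78.0). PDIA6 was at 392, 371 and 370.1 CPM, and exons of ATP6V1C2 and other genes cover 25.2% of it. PDIA5 was at 24.5, 29.8 and 24.9 CPM and TXNDC11 at 38.9, 39.3 and 40.1 CPM. Among the prolyl isomerases, which turn proline bonds, FKBP14 was at 42.2 CPM with siRNA 1, 43.8 CPM with siRNA 2 and 30.4 CPM in the control library, and FKBP2 was at 48.2, 42.2 and 61.4 CPM. FKBP14 was thus above and FKBP2 below control in both siRNA libraries, neither past 1.5-fold, but with the GC trend removed FKBP2 was at a log2 ratio of 0.07 with siRNA 1 and −0.34 with siRNA 2. PPIB (cyclophilin B) was at 34.5, 36.6 and 33.9 CPM, and exons of SNX22 and other genes cover 27.2% of it.

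Among the sensors, ERN1 alone passed the 1.5-fold rule, as lower with both siRNAs. ERN1 was at 23.0 CPM with siRNA 1, 23.4 CPM with siRNA 2 and 36.3 CPM in the control library, or 63.3% (57.4 to 69.7) and 64.6% (58.7 to 71.1) of control. With the trend of GC content removed its log2 ratios were −0.48 and −0.57, inside the 1.5-fold line, and with median-of-ratios scaling they were −0.53 and −0.63. XBP1, whose message ERN1 splices, was at 124 CPM with siRNA 1, 125 CPM with siRNA 2 and 108 CPM in the control library. Values per gene do not separate spliced from unspliced XBP1. EIF2AK3 was at 9.76 CPM with siRNA 1, 14.4 CPM with siRNA 2 and 13.6 CPM in the control library. ATF6 was at 38.1 CPM with siRNA 1, 65.3 CPM with siRNA 2 and 44.98 CPM in the control library, and ATF6B, its relative, was at 83.9, 106 and 82.3 CPM.

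Of the degradation genes, HERPUD1 stood out. It encodes a membrane protein that gathers the degradation complex, and it was at 82.1 CPM with siRNA 1, 104 CPM with siRNA 2 and 56.0 CPM in the control library. This is 147% (138 to 156) and 187% (176 to 198) of control, with log2 ratios of 0.55 and 0.89. SEL1L and SYVN1, the adaptor and the ubiquitin ligase of that complex, were at 84.7, 116 and 90.6 CPM and at 79.9, 97.3 and 88.8 CPM in the siRNA 1, siRNA 2 and control libraries. The lectins OS9 and ERLEC1, which read glycans of misfolded proteins, were at 152, 185 and 166 CPM and at 54.99, 58.4 and 51.7 CPM. SELENOS was at 47.7, 50.4 and 45.01 CPM.

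The derlins are membrane proteins of the same export route. DERL1 was at 61.8 CPM with siRNA 1, 49.6 CPM with siRNA 2 and 66.5 CPM in the control library, and DERL2 was at 44.7, 49.5 and 45.1 CPM. DERL3 was at 1.60 CPM with siRNA 1, 5.27 CPM with siRNA 2 and 3.69 CPM in the control library, from 48, 157 and 111 read pairs. Exons of other genes, mainly SMARCB1 on the opposite strand, cover 77.0% of it. SMARCB1 was at 74.3, 43.3 and 76.3 CPM, and the value of DERL3 is uncertain because the sources used here give no strand setting. The translocon genes SEC61A1 (its pore), SEC61B, SEC61G and SSR1 had log2 ratios from −0.24 to 0.09 with siRNA 1. With siRNA 2 they ran from 0.01 to 0.27.

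**Figure D4:**
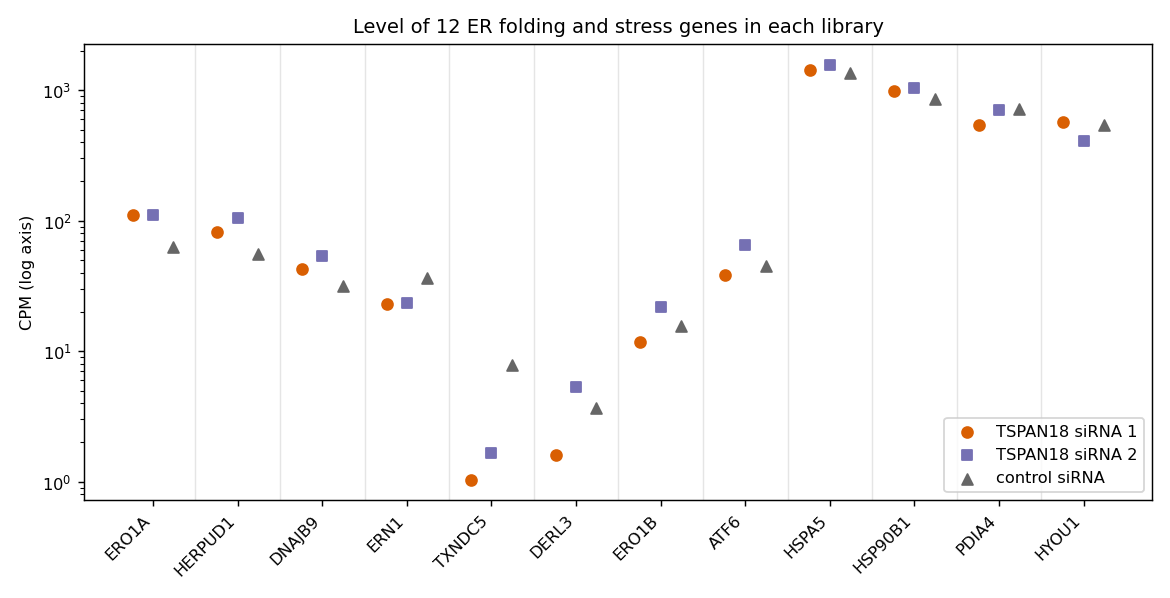
Level of 12 of the genes in each library, in CPM on a log axis. Circles are siRNA 1, squares siRNA 2 and triangles the control library, 1 library each, with no error bar. ERO1A, HERPUD1 and DNAJB9 have both siRNA libraries above the control library, ERN1 and TXNDC5 both below it, and ERO1B, ATF6 and DERL3 have the control library between the siRNA libraries.

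Per kilobase of the longest coding transcript, HSPA5 had the highest level, at 363 CPM per kilobase with siRNA 1, 401 with siRNA 2 and 347 in the control library. HSP90B1 (343, 367 and 300.4 CPM per kilobase) and P4HB (326, 354 and 280.1) came next, and the ranges of these 3 genes over the libraries overlap. Of the sensor group, 3 genes were near the low end. ATF6 was at 5.08, 8.71 and 6.0, ERN1 at 2.92, 2.98 and 4.61 and EIF2AK3 at 2.1, 3.10 and 2.93 CPM per kilobase. ATF6B (32.0, 40.3 and 31.4) and XBP1 (67.0, 67.6 and 58.3) were not. Only TXNDC5 and DERL3 were lower than all of ATF6, ERN1 and EIF2AK3 in the control library.

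The siRNA libraries also differed from each other. Set against siRNA 2, none of the 40 genes was at least 1.5-fold higher with siRNA 1 (3.74% of all tested genes were) and 3 were at least 1.5-fold lower (13% of all tested genes were), namely DERL3, ERO1B and ATF6. At 2-fold DERL3 alone was lower (2.85% of all tested genes) and 0 were higher (0.818%). ATF6 with siRNA 1 was 58.3% (54.2 to 62.8) of its siRNA 2 value, ERO1B 54.6% (47.8 to 62.2) and DERL3 30.4% (21.5 to 42.3). The median log2 ratio of siRNA 1 over siRNA 2 was −0.14 for the set and −0.11 for all tested genes. With median-of-ratios scaling 6.49% of all tested genes were higher and 8.84% lower, and HYOU1 passed 1.5-fold as higher with siRNA 1.

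The sources used here give no siRNA sequence. Heptamers present in the annotated 3′ UTRs of at least 100 of 12165 tested genes were ranked on the ratio of siRNA 1 over siRNA 2, after removal of the GC trend. The score was the mean of the genes that hold a heptamer, set against all genes. It also grows with the number of holders. The ends of that ranking were TCACCAA and TTCACCA (lower with siRNA 1) and TGGGTCA and GGGTCAA (lower with siRNA 2). Those heptamers were chosen from this same ratio, so the values of genes that hold them are a description. A ranking without the GC correction was run first and gave CTTTTAA in place of GGGTCAA; the correction was adopted after that output was seen and with heptamers from an earlier look at these data known. Sites in the 3′ UTRs of DERL3, ERO1B and ATF6 are shown, because these 3 genes differ most between the siRNAs, with ERO1A as a gene that holds the other kind. Capitals mark the heptamer, and GENCODE 29 is the source.
DERL3: gcggggaagTTCACCAgatttcggc
ERO1B: catagctacTCACCAAaatacacag
ATF6: atgtcatacTCACCAAcgttagtcc
ERO1A: gactttaggGGGTCAAtaaagctga
DERL3, ERO1B and ATF6 all hold a siRNA 1 heptamer and none of the siRNA 2 pair. The 6 genes with siRNA 1 heptamers only (these and ERN1, HERPUD1 and SSR1) had a median log2 ratio of siRNA 1 over siRNA 2 of −0.55, against −0.23 for the 2149 tested genes of that class. The 5 genes with siRNA 2 heptamers only had −0.10 (0.06 for all of that class), and the 26 with neither had −0.13 (−0.11 for all). The 3 genes with heptamers of both kinds had 0.02 (−0.07 for all of that class), from −0.45 for SEL1L to 0.31 for DERL1, with DNAJC10 between them. Under the ranking without GC correction, ATF6 and ERO1B hold heptamers of both kinds and DERL3 those of siRNA 1 alone, so the class of ATF6 and ERO1B depends on the ranking. The part of these sites in the values was not tested.

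**Figure D5:**
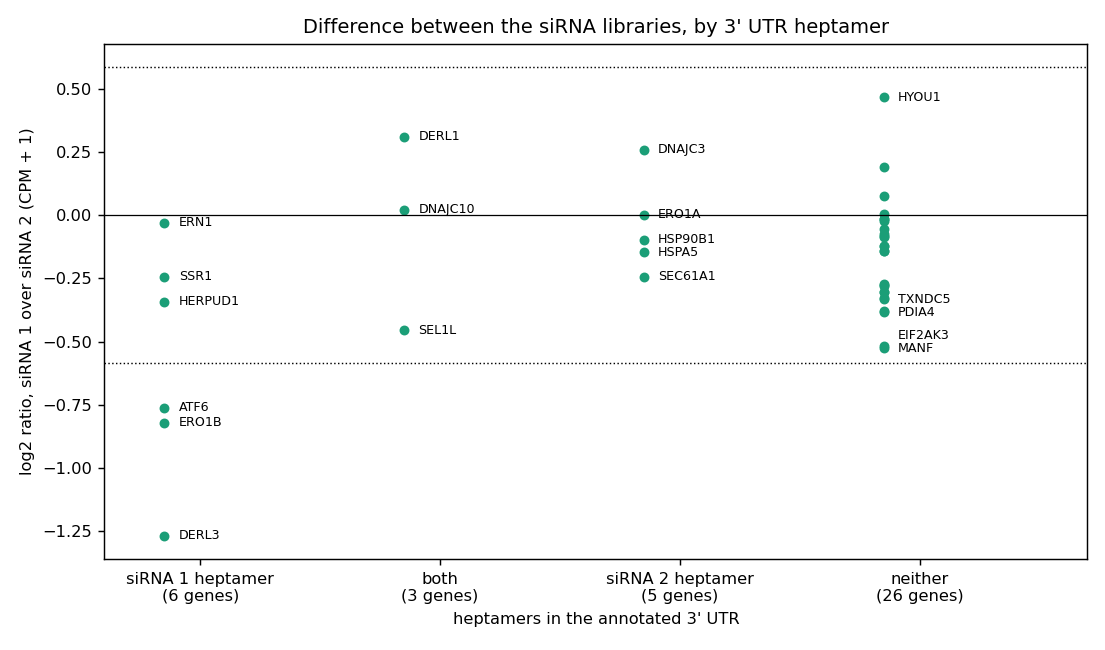
Log2(CPM + 1) ratio of siRNA 1 over siRNA 2 for the 40 genes, split by the heptamers in their annotated 3′ UTR. Each point is 1 gene, names mark some of them, and dotted lines mark 1.5-fold. The 3 genes below the lower dotted line, ATF6, ERO1B and DERL3, are in the class with siRNA 1 heptamers only under the ranking with the GC trend removed.

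The 8 genes with ERSE or ERSE-II in the promoter had a median log2 ratio of 0.07 with siRNA 1 and 0.25 with siRNA 2, and the 28 other genes with a promoter in the table had −0.02 and 0.13. The 8 genes were not alike. HERPUD1 was at 0.55 and 0.89, HSPA5 at 0.07 and 0.21, HYOU1 at 0.08 and −0.39, SDF2L1 at −0.58 and −0.28 and ERO1B at −0.36 and 0.46. With the GC trend removed SDF2L1 was at −0.13 and −0.06 and ERO1B at −0.54 and 0.24.

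Beyond the set, a list of 101 other genes of the same compartment was read, of which 97 were tested. Their median log2 ratio was 0.04 with siRNA 1 and 0.16 with siRNA 2. By the 1.5-fold rule, 11 of the 97 were higher and 5 lower with siRNA 1, beside 4.43% and 15.1% of all tested genes. The siRNA 2 counts were 13 and 0 of 97, beside 6.34% and 6.61%. None passed limma, which called 0 of all genes. The highest were TRIB3, a pseudokinase of the ATF4 arm, at 186 CPM with siRNA 1, 229.8 CPM with siRNA 2 and 90.1 CPM in the control library, then MESD, a chaperone of lipoprotein receptors (83.8, 87.0 and 39.3 CPM), TMX3, a membrane isomerase (91.9, 87.1 and 44.3 CPM), PRDX4, a luminal peroxiredoxin (55.3, 57.0 and 29.5 CPM), and PPP1R15A, which restores translation (159, 200.5 and 97.5 CPM). The lowest were BAK1 (24.3, 46.4 and 50.1 CPM), FKBP9 (89.6, 126 and 157 CPM), SELENOM (19.4, 17.3 and 25.0 CPM), EDEM2 (35.7, 43.2 and 52.5 CPM) and SDF2 (32.7, 26.9 and 39.2 CPM).

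Well-known products of the stress arms are given as further reference, chosen for their textbook role. DDIT3 (CHOP), a transcription factor of the ATF4 arm, was at 15.3 CPM with siRNA 1, 18.1 CPM with siRNA 2 and 9.91 CPM in the control library, with 39.6% of its exons covered by other genes, mainly MARS on the opposite strand. ATF4 itself was at 418, 424 and 361 CPM. EDEM1, a mannosidase-like degradation factor of the XBP1 arm, was at 54.6, 67.0 and 59.4 CPM. The lectin chaperones CALR and CANX were at 977, 1160.0 and 936 CPM and at 1093, 1145 and 1013 CPM.

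Chaperones of other compartments were read in the same way. The 15 cytosolic chaperones had median log2 ratios of 0.17 with siRNA 1 and 0.21 with siRNA 2, and the 10 mitochondrial chaperones and proteases had 0.20 and 0.17. The medians of the 40 genes were 0.01 and 0.17. HSPA8, the constitutive cytosolic Hsp70, was at 1877 CPM with siRNA 1, 1953 CPM with siRNA 2 and 1673 CPM in the control library. HSPA9, the mitochondrial Hsp70, was at 590.3, 633 and 473 CPM and HSPD1, the mitochondrial chaperonin, at 466, 577 and 419 CPM. The stress-inducible HSPA1A and HSPA1B, near-identical copies whose reads cannot be split with certainty, were at 75.9, 89.8 and 51.7 CPM and at 72.3, 75.3 and 61.9 CPM.

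The ratios followed the GC content of transcripts across genes, which are not independent replicates: Spearman's rho was −0.419 with siRNA 1, −0.353 with siRNA 2 and −0.140 for siRNA 1 over siRNA 2. The median GC content was 47.0% in the set and 48.3% in all tested genes. With the trend removed, the median log2 ratio of the set was 0.10 with siRNA 1 and 0.14 with siRNA 2, ERO1A was at 0.67 and 0.62 and HERPUD1 at 0.64 and 0.89. The removal turned the sign of 8 of the 40 ratios with siRNA 1 and of 7 with siRNA 2. Heptamers were also ranked on the mean ratio of both siRNAs to control, by a score that grows with the number of holders. CGGAGAA came first with the trend removed. It was in 2.47% of genes with a 3′ UTR and, of the 40, in FKBP14 and P4HB alone. The median log2 ratios of its holders, not GC-corrected, were 0.03 with siRNA 1 and 0.14 with siRNA 2. ATAATTT came first with the trend kept, in 28.1% of such genes (medians 0.06 and 0.11) and in 13 of the 40.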

How the data were processed

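RNA of DU145 cells was sequenced as 100-base read pairs in 3 libraries, grouped from their labels as siTSPAN18 (siRNA 1 and siRNA 2) and control. Per the submitters' processing notes, the tools were HTSeq 0.6.1, HISAT2 2.1.0 and bcl2fastq 2.19.1 with build hg19. The sources used here name no annotation or strand setting. The deposited values are CPM by the authors. All values (100%) were whole multiples of the smallest value in their library, within 0.001 of that unit. The unit was taken as 1 read of a pair, and depths and read pairs were recovered on that basis. Genes at 1 unit (178 with siRNA 1, 97 with siRNA 2 and 163 in the control library) were set to 0 pairs. No other value was an odd number of units.

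Ratios were taken on log2(CPM + 1) for the 14185 genes whose mean was 1 CPM or more. limma 3.58.1 (R 4.3.3) compared the 2 siTSPAN18 libraries with the control, Benjamini-Hochberg adjusted at 0.05, with the control assumed to vary like the siRNA pair. The spread of a gene rests on 1 residual degree of freedom, the gap between the 2 siRNAs, and on spread borrowed from all genes. The borrowed part was worth 6.27 degrees of freedom, or 23.2 with median-of-ratios scaling. The p-values measure only the spread between these libraries, which may be technical or particular to a siRNA. edgeR 4.0.16 and DESeq2 1.42.0 were run on recovered pairs. Intervals are exact (Clopper-Pearson, 95%). The fits, intervals and heptamer ranking were tested on simulated data. GC content, length, exon overlap (uncertain from 20%) and 3′ UTRs came from GENCODE 29, which is on another build, so no coordinates come from it. Other steps used Python 3.11.15 with matplotlib 3.10.9, statsmodels 0.14.6, scipy 1.17.1, pandas 2.3.3 and numpy 2.4.6.

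The genes, lists and rules were chosen with earlier results of these data known. All 40 genes are named; of the 101 others, the 5 with the highest and the 5 with the lowest mean ratio at 5 CPM or more, and 5 chaperones of other compartments. The 5 textbook stress genes and SMARCB1 were named outside that rule. Alternatives were other scalings, a pseudocount of 0.1, other filters, a fold of 2, GC correction, leaving out each siRNA library, and, added after seeing the data, leaving out overlapping genes or genes with a heptamer under either ranking.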

Additional observations from a re-analysis of the deposited data

How the results depend on the processing

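Without siTSPAN18 replicate 1 or 2, the median over the 40 genes of the mean log2 ratio (0.09) ranged from 0.01 to 0.17. The other alternatives left the set's medians within the SD of the library medians (0.11), except that median-of-ratios scaling gave 0.12 with siRNA 1. The count of higher genes with siRNA 1 was 1, beside 4.43% of all tested genes. It was 2 with median-of-ratios scaling (7.35%), TMM scaling (7.20%) or the GC trend removed (6.0016%). It was 0 at a fold of 2 (0.677%) and 0 of 26 without genes that hold a heptamer (4.55%). The count of lower genes with siRNA 1 was 3 (15.1%). It was 4 with a pseudocount of 0.1 (18.5%), and 2 with median-of-ratios scaling (11.5%) or TMM scaling (11.6%). It was 1 with the GC trend removed (9.02%) and at a fold of 2 (4.21%). It was 1 of 38 at a mean of at least 5 CPM (13.7%) and 1 of 35 without overlapping genes (15.2%). Without genes that hold a heptamer it was 1 of 26 (13.5%), or 1 of 22 under the ranking without GC correction (15.1%). With siRNA 2, the count of higher genes was 3 (6.34%), 0 at a fold of 2 (1.1%) and 1 of 26 without genes that hold a heptamer (6.22%). The count of lower genes was 2 (6.61%), and 1 under the same settings that gave 1 with siRNA 1. There the shares were 5.61% with the GC trend removed, 6.24% at 5 CPM, 1.16% at a fold of 2 and 6.65% without overlapping genes. Without genes that hold a heptamer they were 5.42%, or 6.02% under the ranking without GC correction. The count of genes 1.5-fold apart between the siRNAs was 3, all lower, beside 13.0% lower and 3.74% higher of all tested genes. With a pseudocount of 0.1 it was 4, all lower (17.0% and 4.91%). With median-of-ratios scaling it was 4, with 3 lower and HYOU1 higher (8.84% and 6.49%). The same 4 genes were apart with TMM scaling (9.17% and 6.15%) and with the GC trend removed (8.40% and 6.13%). At a mean of at least 5 CPM the count was 2 of 38, both lower (11.5% and 4.09%). Without overlapping genes it was 2 of 35, both lower (13.2% and 3.86%). At a fold of 2 it was 1 (2.85% and 0.818%). Without genes that hold a heptamer it was 0 of 26 (11.4% and 2.99%), or 0 of 22 under the ranking without GC correction (12.4% and 2.78%). The heptamers were chosen from this same ratio, so these counts of 0 are a description and not a test. Limma called 3 genes with median-of-ratios scaling, all lower, 1 of them TXNDC5 (adjusted p = 0.0375), edgeR's likelihood ratio test 23 and DESeq2 13. The adjusted p of TXNDC5 ranged from 0.0049 to 0.992 over these tests. Of 240 values of single genes under 6 alternatives, 34 moved by more than the SD of the siRNA pair and 206 did not. Leaving out 1 siRNA library cannot move a mean of 2 by more than their SD, so those values are unmoved by construction. The SD also differs by gene: for ERO1A it was 0.0011, so that a shift from 0.802 to 0.811 counted as moved. The 206 are thus no measure of stability. With the GC trend removed, 11 of the 40 mean ratios changed sign. The number was 3 with either scaling, 0 with a pseudocount of 0.1, and 6 and 8 without siRNA 1 and siRNA 2. No sign change was in a gene whose mean ratio was past 1.5-fold. Without genes that hold a heptamer under the ranking without GC correction, 1 of 22 genes was higher with siRNA 1 (3.85%). With siRNA 2 the count was 2 (5.93%). No paired analysis was possible because there is 1 control library. Counting error was largest for TXNDC5 and DERL3, which had the fewest read pairs of the 40 genes.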
